A study of Mus musculus with 23 samples.

Results

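The interferon-stimulated genes described here are 32 genes of the mouse, chosen by their symbols from a list of well-known genes of the interferon response, out of 54354 gene identifiers in the count table. All 32 were in the table, each once. They were followed across 12 libraries of sorted GFP-negative cells and 11 libraries of sorted GFP-positive cells. Organoids labelled Basp1-eGFP-DTR and AKP-tdT were placed orthotopically in the colon of mice, and cells of the digested primary tumours were sorted by GFP, so that both populations carry the same labelled genotype, Basp1-GFP, and differ in the GFP signal of the reporter. The labels give no age, sex, diet or treatment for any library, and do not say whether the organoids were 1 clone. The RNA protocol speaks of organoids as its source where the design text speaks of tumours, a difference the labels do not settle. Each library name starts with an identifier. GFP-negative 4 is named 8050 and GFP-negative 5 is named 8045, and only GFP-positive 4 has the joined name 8045-8050. These libraries were put under 8045-8050 here, also in the test between identifiers, a choice that the labels do not state. Grouped in this way, 10 of the 11 identifiers had both populations. The labels do not say whether an identifier is a mouse or a pool of mice, although the joined names 7789-7795 and 8045-8050 hold a pair of numbers each.

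Interferons are secreted proteins that act through receptors and JAK kinases on STAT factors. Type I and type III interferons act mainly through the interferon-stimulated response element (ISRE), which a complex holding STAT2 and IRF9 binds, and type II interferon acts mainly through the gamma-activated sequence (GAS). The induced genes encode antiviral effectors, sensors of foreign RNA, feedback inhibitors and chemokines, and intestinal epithelium can both make and answer these signals.

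The ISRE and the GAS were searched around the starts of these genes, and 5 promoter windows are shown because the genes behind them had different levels or spreads across libraries. RefSeq promoter windows (GRCm38.p6, 250 bases before to 50 after the gene start) were matched by symbol for 24 of the 32 members, with 28 windows. They are printed 5′ to 3′ on the gene's strand up to 30 bases after the start, with motif matches in capitals. The Ifitm3 and Ifitm2 windows stand first, as the neighbouring pair with the highest levels. Ifit1 and Isg15 follow as classical targets with several matches, and Irf1 as a member with a GAS match alone.
Ifitm3 promoter, chr7:141010715-141010994, minus strand: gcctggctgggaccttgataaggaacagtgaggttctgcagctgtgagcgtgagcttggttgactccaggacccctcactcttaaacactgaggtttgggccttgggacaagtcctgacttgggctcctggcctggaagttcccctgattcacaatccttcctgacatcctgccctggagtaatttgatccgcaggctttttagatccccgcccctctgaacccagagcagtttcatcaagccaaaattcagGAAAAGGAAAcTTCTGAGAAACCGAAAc
Ifitm2 promoter, chr7:140955932-140956211, minus strand: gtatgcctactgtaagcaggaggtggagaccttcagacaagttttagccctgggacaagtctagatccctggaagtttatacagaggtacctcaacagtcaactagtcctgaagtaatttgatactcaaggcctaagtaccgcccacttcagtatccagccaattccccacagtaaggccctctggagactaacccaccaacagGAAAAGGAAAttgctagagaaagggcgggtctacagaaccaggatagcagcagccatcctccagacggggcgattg
Ifit1 promoter, chr19:34640639-34640918, plus strand: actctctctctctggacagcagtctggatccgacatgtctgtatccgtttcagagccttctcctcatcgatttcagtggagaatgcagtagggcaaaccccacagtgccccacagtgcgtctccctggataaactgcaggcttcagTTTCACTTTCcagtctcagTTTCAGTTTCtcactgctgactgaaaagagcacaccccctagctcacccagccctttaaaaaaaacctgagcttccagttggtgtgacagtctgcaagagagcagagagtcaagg
Isg15 promoter, chr4:156200789-156201068, minus strand: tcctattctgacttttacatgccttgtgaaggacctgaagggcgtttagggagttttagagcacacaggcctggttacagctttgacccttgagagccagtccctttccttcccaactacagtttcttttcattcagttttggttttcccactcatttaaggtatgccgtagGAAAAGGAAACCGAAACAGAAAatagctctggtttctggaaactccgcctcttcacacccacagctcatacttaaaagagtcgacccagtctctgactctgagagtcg
Irf1 promoter, chr11:53769764-53770043, plus strand: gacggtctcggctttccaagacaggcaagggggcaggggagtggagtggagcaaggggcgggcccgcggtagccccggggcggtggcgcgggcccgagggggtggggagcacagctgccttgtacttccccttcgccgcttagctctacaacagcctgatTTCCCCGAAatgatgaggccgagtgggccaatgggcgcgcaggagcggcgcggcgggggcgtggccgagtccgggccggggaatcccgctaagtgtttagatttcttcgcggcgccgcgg

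The ISRE core was searched as GAAA, any 2 bases and GAAA, and the GAS as TTCNNNGAA, both on either strand and with overlaps allowed. The ISRE core was in 15 of the 28 member windows, those of 15 of the 24 genes, and in 3.44% of all 32851 promoter windows of that length. The GAS was in 6 of the 28 windows and in 8.3% of all windows. Irf7, Irf9, Oasl2, Ifi44, Xaf1 and Trim25 had neither in any of their windows, and Gbp3, Irf1 and Ifit2 each had another window with neither. Counting the first base of the gene as 1, the Ifitm3 window held ISRE cores at 3 to 12 and 20 to 29 and a GAS at 14 to 22 that overlaps the second of them. The Ifitm2 window held a single ISRE core, at -46 to -37. The Ifit1 window held ISRE cores at -104 to -95 and -85 to -76, on the opposite strand, and the Isg15 window held 3 overlapping ones between -78 and -57. The Irf1 window that starts upstream held a GAS at -90 to -82 and no ISRE core. A match describes letters in a window and is not a measured binding site.

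**Figure D1:**
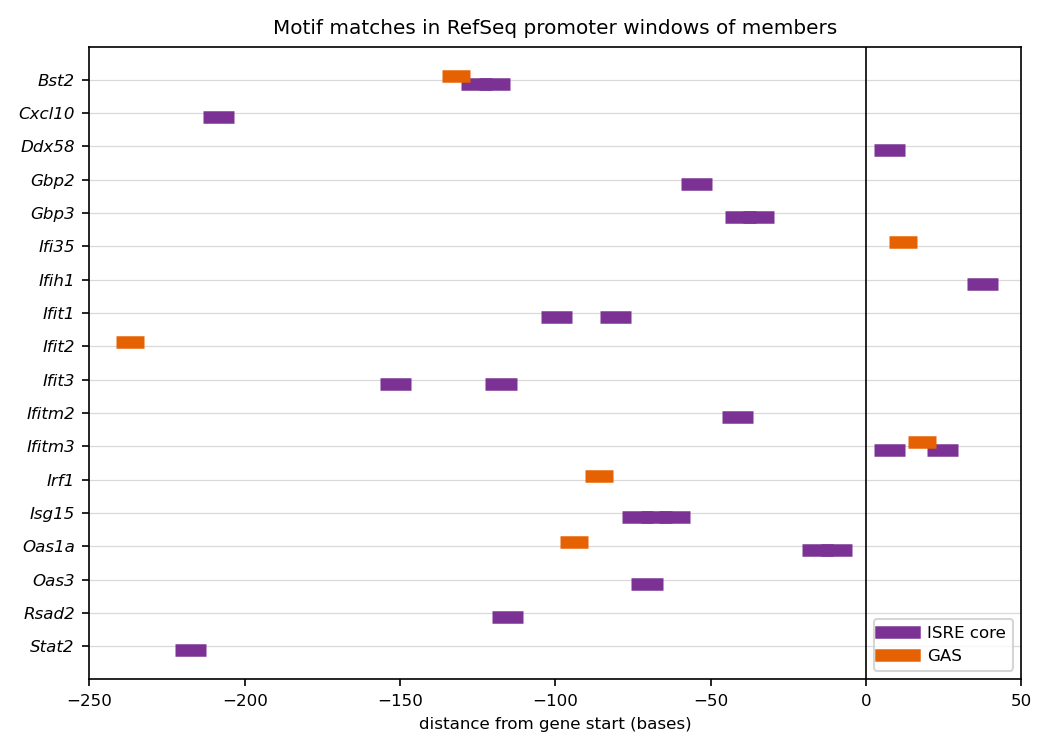
Matches of the ISRE core (purple) and the GAS (orange) in the promoter windows of the members that had any match, by distance from the gene start in bases (horizontal axis), 1 line per gene. The matches of Ifitm3 lie after the start, whereas those of Ifit1 and Isg15 lie before it.

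Library totals ran from 25458 to 2304316 counts in GFP-negative libraries (median 144334) and from 37125 to 4238877 in GFP-positive libraries (median 1418140), and 4 libraries (GFP-negative 4, 5 and 12 and GFP-positive 4) held under 100000. Levels are given as CPM, the count divided by the library total and multiplied by 1000000, in which 3 counts, the limit that a count of 0 allows, stand for 0.708 CPM in the deepest library and 118 CPM in the shallowest. Such floors cover counting error only, and the labels name no molecular identifiers. The 10 epithelial markers summed to between 2504 and 7060 CPM in every library. Basp1, the gene of the reporter, averaged 33.4 ± 27.0 CPM in the GFP-negative group (SD, n = 12) and 57.8 ± 32.9 CPM in the other (SD, n = 11), and its log2 fold change of 0.63 (SE 0.38) did not pass the test (edgeR, adjusted p = 0.997). GFP-positive 3 stood apart, with 37096 CPM of 14 macrophage and monocyte markers against 194 to 1452 CPM in the other 10 GFP-positive libraries, so results are also given without it and without the 4 shallow libraries. In bulk libraries, fewer cells of a type and less RNA per cell cannot be told apart.

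No interferon-stimulated gene passed the test between the sorted populations. Of the 32 members, 20 had enough counts to pass the filter on low counts, and 0 of these 20 were called, where 1 of all 6621 tested genes was (0.0151%; edgeR quasi-likelihood test, adjusted p under 0.05). At an unadjusted p under 0.05 there was 1 member, Usp18, beside 328 genes (4.95%). DESeq2 called 0 members and 24 genes (0.362%), with 1 member and 417 genes (6.3%) at an unadjusted p under 0.05. Fold changes were positive for 14 of the 20 members, with a median log2 fold change of 0.23, and for 58.5% of all tested genes, with a median of 0.07. The members' median was 0.02 without GFP-positive 10 and 0.40 without GFP-negative 9. The ranges of the populations overlapped for all 32 members. This is not shown to be particular to them, since overlap was not counted over all genes. The members that passed the filter are the more abundant ones, not a sample of the list.

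**Figure D2:**
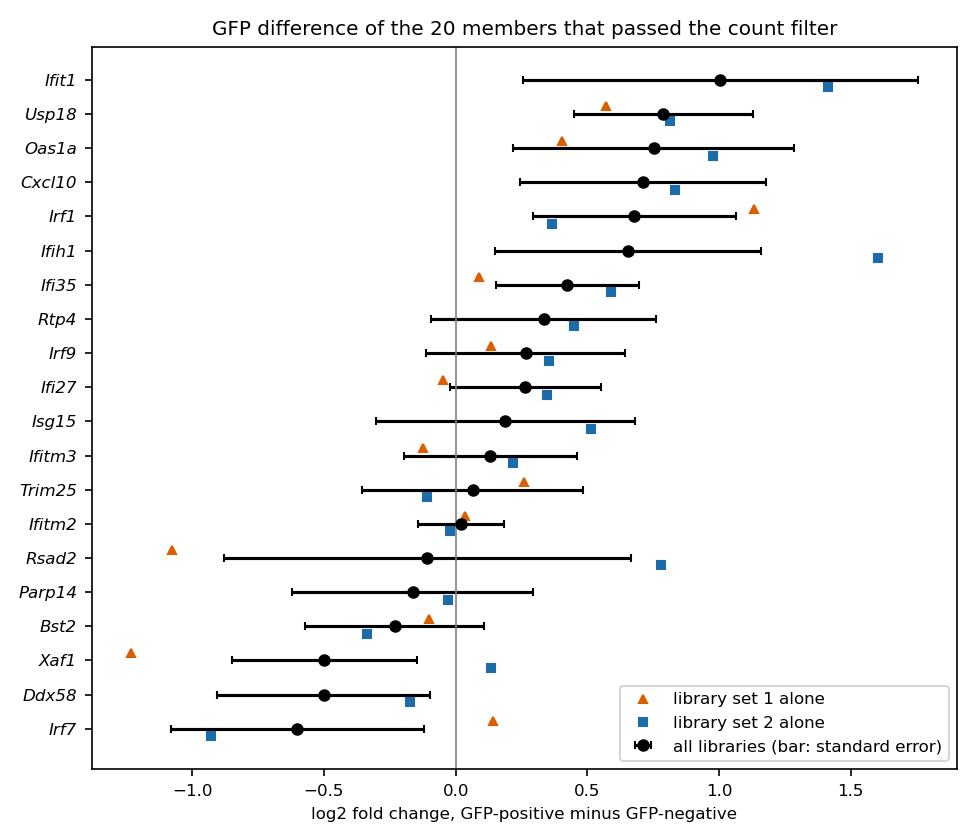
Log2 fold change of GFP-positive against GFP-negative libraries (horizontal axis) for the 20 members that passed the filter (vertical axis), with black points and standard errors for all 23 libraries and coloured symbols for each library set alone. Values run from -0.60 for Irf7 to 1.00 for Ifit1, and those of the 2 library sets lie on opposite sides of 0 for Rsad2, Xaf1 and Irf7 among others.

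The interferon-induced transmembrane proteins, which block the entry of viruses from endosomes, were by far the most abundant. Per kilobase of exon, Ifitm3 had a median level of 1213 CPM and Ifitm2 of 1003 CPM, followed by Bst2 at 81.7, Ifi27 at 57.7 and Ifi35 at 30.1. Ifitm3 (ENSMUSG00000025492, chr7:141009586-141010770 on mm10, minus strand) ranged from 520 to 1789 CPM in GFP-negative libraries (median 784) and from 398 to 2425 CPM in GFP-positive libraries (median 881). The highest GFP-positive level, in GFP-positive 10, lay above every GFP-negative library, and the lowest, in GFP-positive 1, below every one, so the populations overlapped over the whole GFP-negative range. Ifitm3 averaged 958 ± 427 CPM without GFP (SD, n = 12) and 1020 ± 659 CPM with it (SD, n = 11), and its log2 fold change was 0.13 (95% interval -0.55 to 0.81). This value turned to -0.10 without GFP-positive 10, to -0.02 without GFP-positive 8 and to -0.15 with the identifier as a replicate block.

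Ifitm2 (ENSMUSG00000060591, chr7:140954837-140955987, minus strand) lies in the same cluster and varied far less. Its level ran from 433 to 854 CPM in GFP-negative libraries (median 669) and from 431 to 866 CPM in GFP-positive libraries (median 657). The means were 648 ± 129 CPM (SD, n = 12) and 647 ± 142 CPM (SD, n = 11), which differed by 0.02 on the log2 scale with an interval of -0.31 to 0.35, the narrowest among the members tested. Ifitm2 shared 55.5% of its 31-base stretches with other annotated genes, mostly Gm45717, and Ifitm3 shared 20.5%, so part of their counts depends on how reads were divided. The 2 members shared 6.24% and 6.02% of their stretches with each other.

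The IFIT genes, whose proteins bind foreign RNA ends and hold back translation, were uneven across libraries. Ifit1 (ENSMUSG00000034459, chr19:34640871-34650009, plus strand) ran from 0 to 108 CPM in GFP-negative libraries (median 25.3) and from 0 to 297 CPM in GFP-positive libraries (median 20.7). GFP-positive 10 (505 counts) and GFP-negative 11 (11 counts) held the highest level of their population, and both carry the identifier 7914. The log2 fold change of 1.00 (interval -0.55 to 2.56) was the largest among the members and rested on that GFP-positive library, since it was 0.02 without it. Ifit2 (chr19:34550694-34576419) had 0 counts in 7 GFP-negative libraries and 1 GFP-positive library. It was highest in the libraries of 7914 as well, at 49.0 CPM (GFP-negative 11) and 109 CPM (GFP-positive 10). In GFP-negative 11, 3 counts stand for 29.4 CPM. Ifit3 shared 61.8% of its 31-base stretches with Ifit3b and ran up to 43.1 and 36.5 CPM. Ifit2 and Ifit3 did not pass the filter.

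Isg15, a ubiquitin-like protein that is attached to other proteins, and Usp18, the protease that removes it and restrains the type I receptor, form a pair of effector and inhibitor. Isg15 (chr4:156199424-156200818, minus strand) ran from 0 to 61.2 CPM in GFP-negative libraries (median 16.0) and from 1.43 to 92.4 CPM in GFP-positive libraries (median 24.6). Its log2 fold change of 0.19 (interval -0.81 to 1.19) turned to -0.28 without GFP-positive 10, the library with the highest level. Usp18 (ENSMUSG00000030107, chr6:121245906-121270917, plus strand) ran from 0 to 86.2 CPM in GFP-negative libraries (median 42.5) and from 27.4 to 162 CPM in GFP-positive libraries (median 76.6). The GFP-positive libraries tended to sit higher, with means of 77.5 ± 41.2 CPM (SD, n = 11) and 42.8 ± 25.1 CPM (SD, n = 12), but the populations overlapped between 27.4 and 86.2 CPM. The log2 fold change of Usp18 was 0.79 (interval 0.11 to 1.47, edgeR unadjusted p = 0.0247), and it missed the threshold over all genes (adjusted p = 0.992). Within identifiers, Usp18 was higher on the GFP-positive side in 6 of 10. Such counts by identifier were not made over all genes, so none here is shown to be particular to a member.

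The other antiviral effectors did not pass the test either. Oas1a, which makes the oligoadenylates that activate RNase L, had 0.75 on the log2 scale (SE 0.53) and levels up to 88.2 and 98.7 CPM, with 68.7% of its 31-base stretches in common with Oas1g. Rsad2, the antiviral enzyme viperin, had -0.11 (SE 0.77), with 120 CPM in GFP-negative 1 and 70.6 CPM in GFP-positive 10 as its highest levels. Bst2, a protein that tethers budding virus to the cell surface, ran from 0 to 157 CPM in GFP-negative (median 83.6) and from 18.2 to 115 CPM in GFP-positive libraries (median 65.1), with a fold change of -0.23 (SE 0.34). Ifi27, a small hydrophobic interferon-induced protein, ran from 41.7 to 158 CPM (median 77.3) and from 37.1 to 155 CPM (median 99.1), with 0.26 (SE 0.29). Its highest level in each population was in an identifier 40-1 library.

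Ifi35, an interferon-induced protein, ran from 19.6 to 73.0 CPM in GFP-negative libraries (median 41.9) and from 31.8 to 108 CPM in GFP-positive libraries (median 67.7). The 108 CPM was the level of GFP-positive 4, where 3 counts stand for 80.8 CPM. Ifi35 was higher on the GFP-positive side in 8 of 10 identifiers. Its log2 fold change was 0.42 (interval -0.13 to 0.97). Parp14, an ADP-ribosyltransferase, and Xaf1, a partner of the apoptosis inhibitor XIAP, had -0.16 (SE 0.46) and -0.50 (SE 0.35). Rtp4 had 0.33 (SE 0.43).

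**Figure D3:**
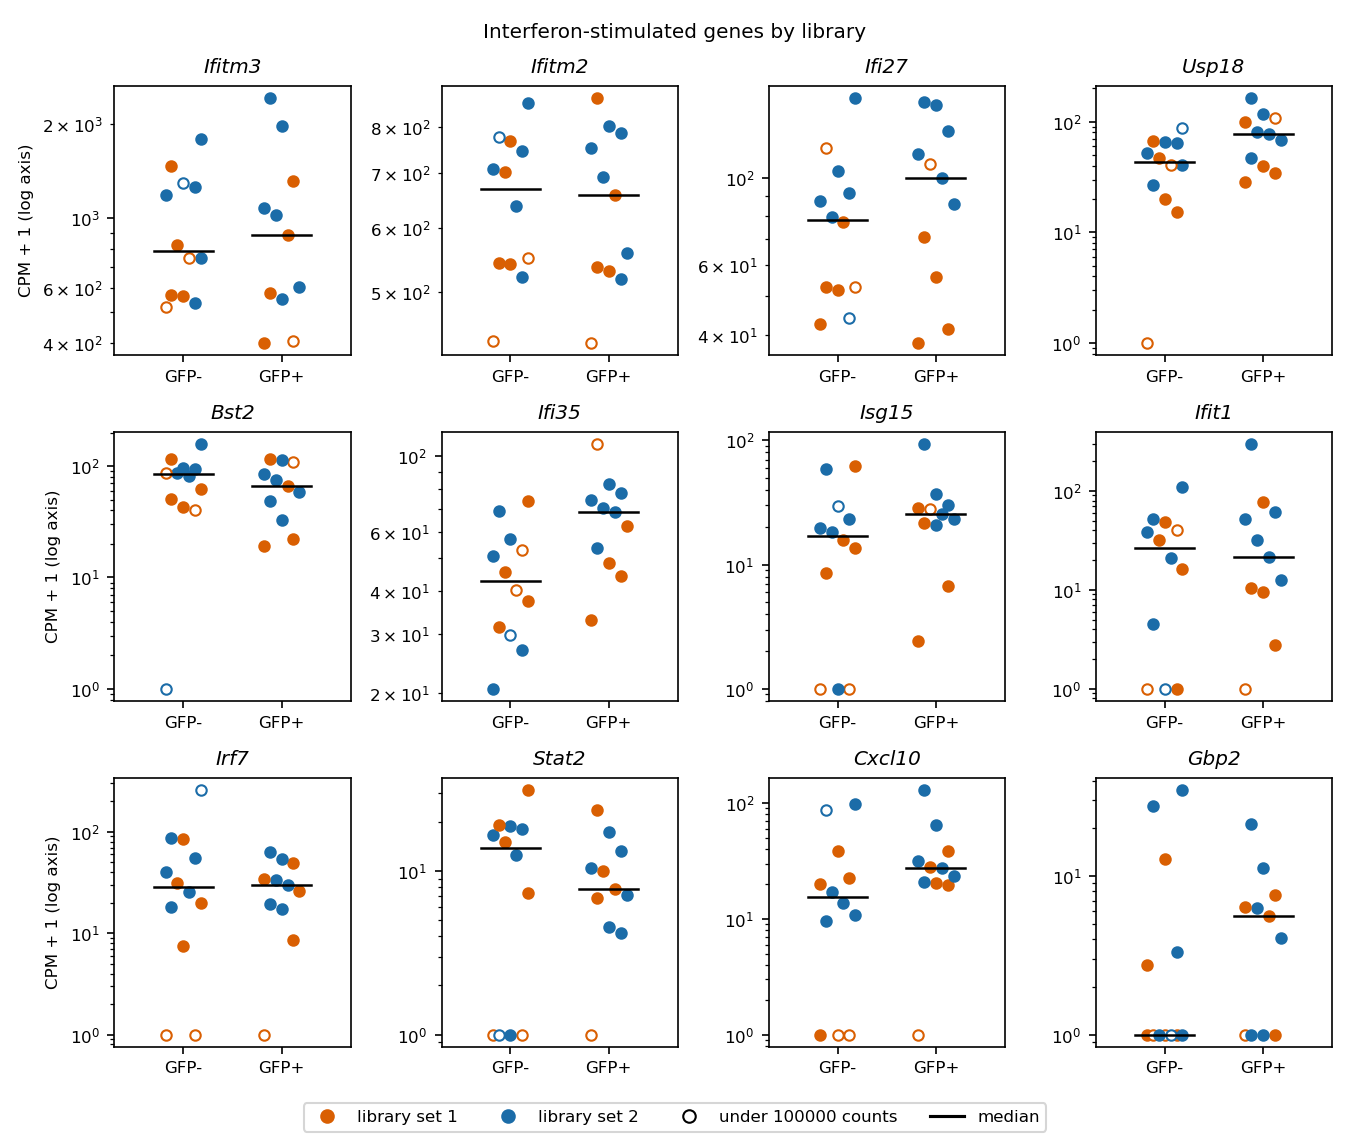
Levels of 12 members in each library as CPM + 1 on a log axis (vertical), GFP-negative and GFP-positive libraries side by side, coloured by library set, open where the library held under 100000 counts, with a line at the median. Ifitm2 stays within 431 to 866 CPM, whereas Ifit1 spans from 0 to 297 CPM, and the populations overlap in every panel.

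The transcription factors of the response had fold changes of either sign. Irf7, the factor that drives interferon-alpha genes (chr7:141262706-141266481, minus strand), ran from 0 to 259 CPM in GFP-negative libraries (median 27.5) and from 0 to 62.8 CPM in GFP-positive libraries (median 28.7). Within identifiers, Irf7 was lower on the GFP-positive side in 8 of 10, higher in 1 and at 0 in both populations of 8045-8050. The fold change of -0.60 (SE 0.48) shrank to -0.20 without GFP-negative 12, a shallow library in which 18 counts stood for 259 CPM. Irf1, a main target of interferon gamma, was higher on the GFP-positive side in 8 of 10 identifiers, with 0.68 (SE 0.38, unadjusted p = 0.0856) and its highest level, 269 CPM, from 10 counts in GFP-positive 4. Irf9, the DNA-binding part of the STAT complex, had 0.27 (SE 0.38). Stat2, its partner, did not pass the filter, with 96 counts over the GFP-negative libraries (0 to 30.5 CPM, median 12.9) and 162 over the GFP-positive ones (0 to 22.5 CPM, median 6.77). Stat2 was lower on the GFP-positive side in 7 of 10 identifiers, higher in 2 and at 0 in both populations of 8045-8050.

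The sensors of viral RNA had low levels. Ifih1, which encodes MDA5, had 0.65 (SE 0.50) and ran up to 75.3 and 60.0 CPM. Ddx58, which encodes RIG-I, had -0.50 (SE 0.40) and was lower on the GFP-positive side in 8 of 10 identifiers. Trim25, a ubiquitin ligase that acts on RIG-I, had 0.06 (SE 0.42). Dhx58, the third member of that helicase family, gave 9 and 61 counts over the populations and did not pass the filter.

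Chemokine and GTPase members were sparse. Cxcl10, which attracts T cells through Cxcr3, ran from 0 to 98.0 CPM in GFP-negative libraries (median 14.5) and from 0 to 129 CPM in GFP-positive libraries (median 26.6), highest in GFP-negative 11 and GFP-positive 9. Its fold change of 0.71 (interval -0.23 to 1.66) was 0.33 without GFP-positive 9. Gbp2, a guanylate-binding protein that acts against intracellular pathogens, had 65 counts over the GFP-negative libraries (0 to 34.0 CPM, median 0) and 129 over the GFP-positive libraries (0 to 20.4 CPM, median 4.63). Gbp2 was at 0 in 7 GFP-negative and 4 GFP-positive libraries and lay below the filter.

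Besides Ifit2, Ifit3, Stat2, Dhx58 and Gbp2, another 7 members lay below the filter in the comparison over all libraries. Oasl2 gave 71 counts in GFP-negative and 223 in GFP-positive libraries, Gbp3 gave 51 and 128, and Ifi44 gave 38 and 95. Oas3 gave 23 and 52, Oas2 gave 14 and 14, Mx1 gave 23 and 52 and Mx2 gave 6 and 22. The Mx genes encode antiviral dynamin-like GTPases and are annotated as polymorphic pseudogenes. Among these 12 members, Oasl2 passed the filter in library set 2 alone, described next, with -1.06 (SE 0.74) and no call. Without the filter all 32 members were tested over all libraries and edgeR called 0, beside 1 of 23846 genes. Usp18 and Irf1 were the 2 members at an unadjusted p under 0.05, beside 2657 genes (11.1%). In the shallow libraries a count of 0 allows up to 118 CPM, but zeros also occurred in deep ones, such as Ifit3 in GFP-positive 2, where 3 counts stand for 1.07 CPM.

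The numbers in the library names form 2 separate runs. The lower run is named library set 1 here and holds 11 libraries, 5 of them GFP-positive, and the higher run is library set 2, with 12 libraries, 6 of each population. The labels do not say what the numbers stand for. In library set 1, 0 of 13 tested members were called and 0 of 5256 genes (0.0%) by edgeR, with 2 members (Irf1 and Xaf1) and 284 genes (5.4%) at an unadjusted p under 0.05, while DESeq2 called 0 members and 6 genes (0.114%). In library set 2, 0 of 21 tested members were called beside 89 of 6952 genes (1.28%) by edgeR, with 2 members (Usp18 and Ifih1) and 478 genes (6.88%) at an unadjusted p under 0.05, while DESeq2 called 0 members and 142 genes (2.04%). Usp18 had 0.57 (SE 0.53) in set 1 and 0.81 (SE 0.38) in set 2. Xaf1 had -1.23 (SE 0.53) and 0.13 (SE 0.43), and Irf1 had 1.13 (SE 0.53) and 0.37 (SE 0.51). Ifih1, which was tested only in set 2, had 1.60 (SE 0.66, adjusted p = 0.537). The interaction of GFP with library set called 0 of 20 members and 0 of 6621 genes (0.0%) by edgeR, with 0 members and 424 genes (6.4%) at an unadjusted p under 0.05, and DESeq2 called 0 members and 4 genes (0.0604%). Over all 104 fits of the GFP difference and its interaction, alternatives and left-out libraries included, 0 called a member, and the smallest adjusted p of a member was 0.136.

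Macrophage, fibroblast and MHC class II markers were lower in the GFP-positive libraries of set 2. There 9 of 10 tested macrophage markers and 5 of 8 fibroblast markers were called lower in GFP-positive libraries. Of the dendritic cell list only the MHC class II markers H2-Aa, H2-Ab1 and Cd74 were tested, and 3 of 3 were called lower. Flt3, Zbtb46, Xcr1, Clec9a and Siglech of that list were not tested. They had 2, 17, 3, 0 and 0 counts over all GFP-negative libraries and 0, 31, 6, 0 and 6 over all GFP-positive ones. Of the neutrophil markers 0 of 4 tested were called in set 2, and of the endothelial markers 0 of 2, all with negative fold changes. The 1 tested T and NK cell marker had a log2 fold change of 0.39 there and was not called. In library set 1, which holds GFP-positive 3, all 10 tested macrophage markers had positive fold changes (median 1.57) and 0 were called, and over all libraries 0 of 10 were called. The sum of the 30 members other than Ifitm2 and Ifitm3 was 312 to 1051 CPM in GFP-negative libraries (median 842) and 330 to 1720 CPM in GFP-positive libraries (median 906), highest in GFP-positive 10 and, among GFP-positive libraries, lowest in GFP-positive 2. Over the same libraries the macrophage marker sum was 512 to 8888 CPM (median 3001) and 194 to 37096 CPM (median 430). The fibroblast marker sum was 148 to 8920 CPM (median 1828) and 0 to 2114 CPM (median 204). GFP-positive 3, with the highest macrophage marker sum, had 9.44 CPM of Ifit1 and 27.4 CPM of Usp18, while GFP-positive 10, with 358 CPM of macrophage markers, had 297 and 162 CPM. GFP-positive 3 was in turn the highest deep GFP-positive library for Oas1a, Oasl2, Bst2, Ifitm2, Xaf1 and Trim25, with 98.7 CPM of Oas1a and 115 CPM of Bst2. Of T and NK cell markers, Cd3e, Cd3d, Cd3g, Nkg7, Cd8a and Klrd1 were at 0 counts in all 23 libraries, while Trbc1, Trbc2, Trac and Gzma had counts. The part of these cells in the members' levels was not tested.

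**Figure D4:**
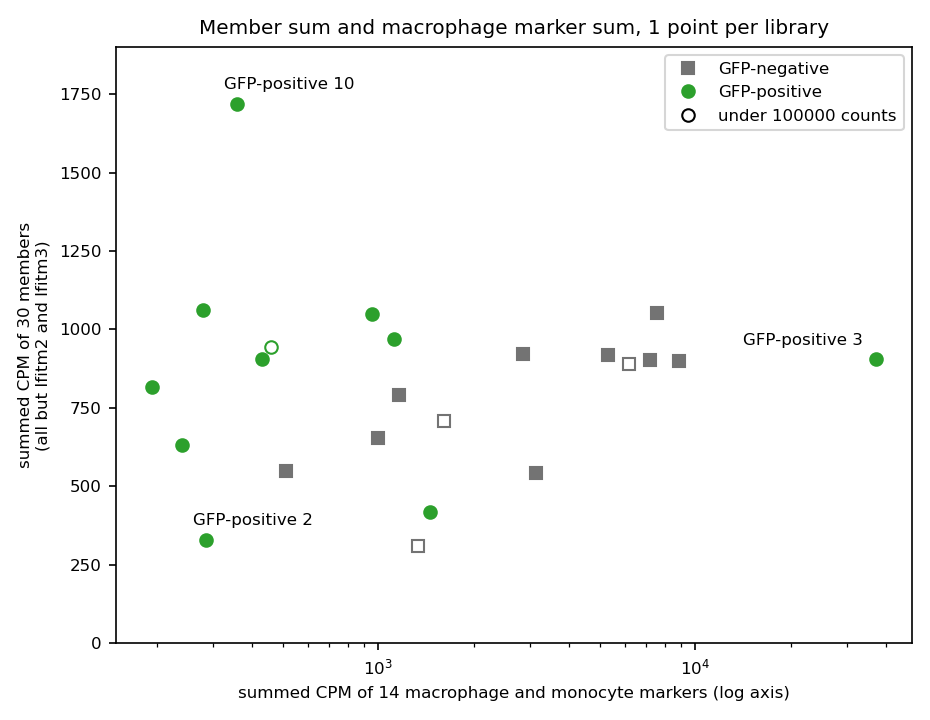
Summed CPM of the 30 members other than Ifitm2 and Ifitm3 (vertical axis) against summed CPM of 14 macrophage and monocyte markers (horizontal log axis), 1 point per library, GFP-negative as squares and GFP-positive as circles, open under 100000 counts. GFP-positive 10 has the highest member sum (1720 CPM) at 358 CPM of macrophage markers, and GFP-positive 3 has a member sum in the middle of the range at 37096 CPM.

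The level of Ifitm3 differed between identifiers. In an F test of the identifier terms beside GFP, over the 22 libraries of the 10 identifiers with both populations, Ifitm3 was the 1 member called of 20 (edgeR quasi-likelihood test, p = 3.49e-06, adjusted p = 0.00259), where 41 of 6673 genes were (0.614%). In identifier 40-1 it had 1789 CPM in the GFP-negative and 1973 CPM in the GFP-positive library, and in 7914 it had 1255 and 2425 CPM. In 3034 it had 563 and 398 CPM, and in 7907 it had 534 and 604 CPM. Both populations were thus high in 40-1 and 7914 and low in 3034 and 7907. The libraries of 8045-8050, all under 100000 counts, had 520 and 746 CPM against 404 CPM, from 30, 19 and 15 counts.

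The remaining identifiers lay between these or differed within themselves. Ifitm3 had 822 and 1314 CPM in 7421, 744 and 550.4 CPM in 5780, 1293 and 1022 CPM in 7968 and 1475 and 881 CPM in 7789-7795. In 61-1 the GFP-negative library had 1191 CPM and the GFP-positive ones 576 CPM (GFP-positive 2) and 1077 CPM (GFP-positive 7). GFP-positive 2 is of library set 1, and the other libraries of 61-1 are of set 2. The library names of GFP-positive 7, GFP-positive 8 and GFP-negative 9 hold a further 2 after the population. Each was counted as its own library. Averaged over both populations, identifiers ran from 480 CPM in 3034 to 1881 CPM in 40-1, a 3.92-fold range. Ifitm2, in the same libraries, ran from 461 CPM in 8045-8050 to 827 CPM in 40-1, a 1.79-fold range, and did not pass (adjusted p = 0.842). The ratio of Ifitm3 to Ifitm2 counts went from 0.74 in GFP-positive 1 to 3.09 in GFP-positive 10, and was 2.09 and 2.47 in the libraries of 40-1.

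**Figure D5:**
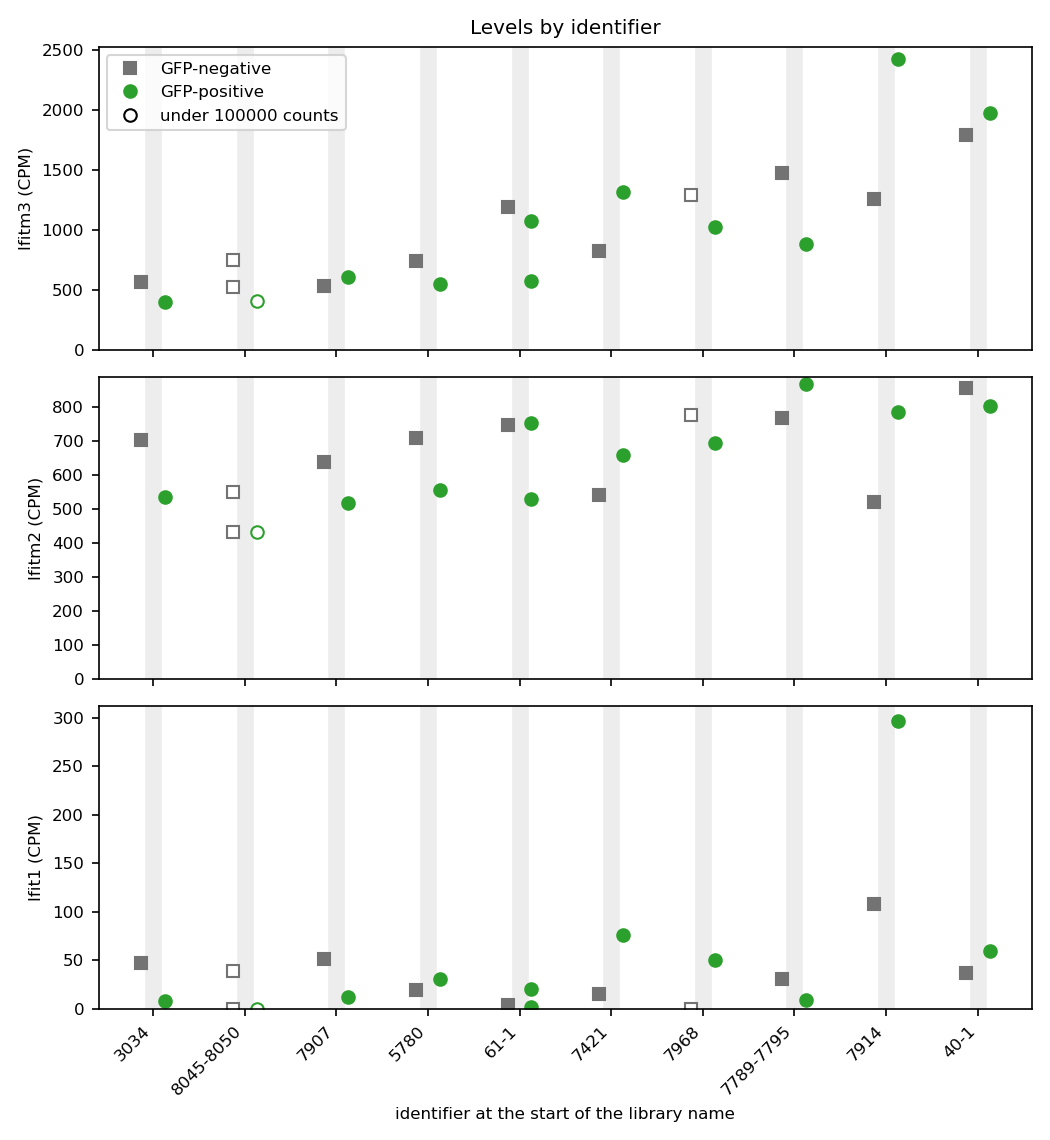
Levels of Ifitm3, Ifitm2 and Ifit1 (CPM, vertical axes) in the libraries of each identifier, ordered by the mean level of Ifitm3, GFP-negative as grey squares and GFP-positive as green circles, open under 100000 counts. Ifitm3 lies between 398 and 563 CPM in 3034 and between 1789 and 1973 CPM in 40-1, Ifitm2 stays within 431 to 866 CPM, and Ifit1 stands highest in both libraries of 7914.

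Ifitm3 was also called by edgeR in library set 2 alone (adjusted p = 1.30e-04, 2.26% of genes called) and without GFP-positive 3, which drops identifier 7789-7795 whole (adjusted p = 1.26e-04). With library set as a covariate, an alternative chosen after seeing the data, its adjusted p was 0.00118 (1.17% of genes). Scaling by relative log expression (0.39% of genes) or by library totals (0.45%) kept Ifitm3 as the 1 member called, and without the filter 7 members were called beside 3.35% of 23783 genes. The call was lost without the libraries under 100000 counts (adjusted p = 0.128, 0.107% of genes called), although not when GFP-positive 3 was left out with them (adjusted p = 0.0154, 1.29%). These fits held 17 and 15 libraries, since an identifier left with 1 population drops out whole: 8045-8050 and 7968, with the deep GFP-positive 11, from both, and 7789-7795, with GFP-negative 6, from the second. It was also lost without GFP-positive 4 (adjusted p = 0.0629), which removes identifier 8045-8050, and in library set 1 alone, added after seeing the data (adjusted p = 0.109, 0.692%). In 40-1 the fibroblast marker sum was 8920 CPM in the GFP-negative and 477 CPM in the GFP-positive library, while Ifitm3 had 1789 and 1973 CPM. GFP-negative 10, with 7245 CPM of fibroblast markers, had 534 CPM of Ifitm3. These libraries were picked after their values were seen, and the part of fibroblasts in the level of Ifitm3 was not tested.

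At an unadjusted p under 0.05, 6 of the 20 members differed between identifiers, beside 9.13% of all genes. They were Ifitm3, Rsad2 (adjusted p = 0.138), Oas1a (adjusted p = 0.178), Irf7 (adjusted p = 0.269), Irf1 (adjusted p = 0.280) and Ifit1 (adjusted p = 0.349), all by edgeR. The identifiers with the highest mean differed among them. Ifit1 went from 7.37 CPM in 61-1 to 203 CPM in 7914 and Oas1a from 7.14 CPM in 61-1 to 86.5 CPM in 7914. Rsad2 went from 0.399 CPM in 61-1 to 72.5 CPM in 3034, and Irf1 from 11.8 CPM in 7914 to 149 CPM in 8045-8050, where it rested on few counts. Irf7 was highest in 7968, at 161 CPM, the mean of 259 CPM in the shallow GFP-negative 12 (18 counts) and 62.8 CPM in GFP-positive 11. It was at 0 in 8045-8050, in whose libraries 3 counts stand for 52.0 to 118 CPM. DESeq2 called Ifitm3, Rsad2, Irf1, Ifit1 and Oas1a (330 genes in all, 4.95%), and in library set 2 alone edgeR called Ifit1 (adjusted p = 0.00208) beside Ifitm3.

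Among the 10 GFP-positive libraries with at least 100000 counts, GFP-positive 10 held the highest level of 12 of the 32 members. These were Ifit1, Ifit2, Ifit3, Isg15, Irf9, Rsad2, Usp18, Gbp3, Rtp4, Ddx58, Ifih1 and Ifitm3. The share of all genes that were highest in a given library was not counted, so these counts are not shown to be particular to the members. GFP-positive 3, with the most macrophage transcripts, was highest for the 6 members named with it above. Among the 9 GFP-negative libraries of that depth, the highest levels were spread over more libraries. GFP-negative 7 was highest for 6 members (Ifit3, Irf1, Irf7, Oas2, Oas3 and Gbp2), GFP-negative 1 for 5 (Isg15, Rsad2, Mx1, Ifih1 and Ifi35) and GFP-negative 11, of the same identifier as GFP-positive 10, for 5 (Ifit1, Ifit2, Oas1a, Bst2 and Cxcl10). In GFP-negative 11, Isg15 and Rsad2 were at 0 counts, where 3 counts would stand for 29.4 CPM.

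The wider pathway gave no called gene over all libraries, where 1 of all 6621 tested genes was called (0.0151%). Of 28 ligands, receptors and signalling genes, 14 passed the filter, 0 were called, 10 had a positive fold change and the median was 0.19. Interferon genes themselves were at or near 0. Ifng, Ifne, Ifnk, Ifna1 and Ifna2 had 0 counts in all 23 libraries. Ifnb1 had 8 counts in all GFP-negative libraries together and 5 in the rest, and Ifnl2, Ifnl3 and Ifna4 had 4, 6 and 1 counts, all in GFP-positive libraries. The receptor chains Ifnar1 and Ifngr1 averaged 12.4 ± 8.73 and 43.6 ± 30.8 CPM without GFP (SD, n = 12) and 17.3 ± 11.2 and 63.7 ± 43.1 CPM with it (SD, n = 11), with fold changes of 0.45 (SE 0.39) and 0.47 (SE 0.35). The smallest unadjusted p was that of Pias1, an inhibitor of STAT signalling, with 0.60 (SE 0.34, unadjusted p = 0.0896), and the kinase Jak2 had 0.63 (SE 0.44).

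Of 20 nucleic acid sensing genes, 6 passed the filter and 0 were called, with a median of 0.11. Sting1, the adaptor of DNA sensing, was the most abundant, with 133 ± 72.3 CPM without GFP (SD, n = 12) and 165 ± 82.4 CPM with it (SD, n = 11), a difference of 0.31 (SE 0.28). Of 28 other interferon-stimulated genes, 10 passed and 0 were called, with 7 positive and a median of 0.09. Ifitm1, of the same cluster as Ifitm2 and Ifitm3, had 303 ± 102 CPM (SD, n = 12) and 269 ± 147 CPM (SD, n = 11), a difference of -0.10 (SE 0.25), and Lgals3bp had 0.47 (SE 0.32). In library set 2, 1 of 13 tested genes of this list was called, beside 1.28% of all tested genes. It was Ifi27l2a, lower in GFP-positive libraries (log2 fold change -2.31, SE 0.53, edgeR adjusted p = 0.0200). Its interaction with library set was not called (adjusted p = 0.606), and it moved beside the macrophage markers of that set, whose part in it was not tested.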

How the data were processed

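RNA of sorted GFP-negative (12) and GFP-positive (11) cells was sequenced from poly(A)-selected directional libraries, per the labels' protocols. The authors deposited 1 table of expected counts by gene, and the submitters' processing notes name Salmon 1.3.0 and mm10. The values were whole numbers, and the annotation is not given in the sources used here. Gene positions and exon lengths came from GENCODE M21, in which 94.8% of the identifiers were found. CPM are counts over the library total, without further scaling.

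Counts were tested with edgeR 4.0.16 under R 4.3.3 (filterByExpr with the group, TMM factors, a robust quasi-likelihood fit, Benjamini-Hochberg adjustment over all tested genes at 0.05), with no covariate for the GFP comparison and with GFP in the F test of identifiers. DESeq2 1.42.0 was an alternative, as were other scaling, no filter, blocks by identifier or title number, and left-out libraries. Intervals are 95% and come from the fit. The scripts were tested on simulated counts of 1 fixed spread, which was not taken from these data. Shares called in the simulation are therefore not those of the members. There, 2-fold changes were called in 68.7% of the changed genes tested over all libraries. The share was 20.2% in library set 1, 15.1% in set 2, 7.53% for the interaction and 13% between identifiers. For 8-fold changes it was 92.6% for the interaction and 100% in the others. A result of 0 members called therefore does not show that no member differed. The labels name no separate animals, and the p-values therefore reflect only how these libraries vary, which may be technical variation. Every 2 libraries compared within a group differed by more than counting noise (smallest chi-square per degree of freedom 2.66).

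The members and lists were chosen with earlier results of these data known. Values by library are given for the 6 members with the largest summed count, for members called in any test, and for Isg15, Ifit1, Irf7, Stat2, Cxcl10 and Gbp2 as examples of roles. Of each other list, the genes with the smallest p or the highest level are named. Oas1a, Rsad2, Irf1, Xaf1, Ifih1 and Ifi27l2a were given further values after these were seen.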

Additional observations from a re-analysis of the deposited data

Results flagged for a closer look

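Of 48 groups of libraries tested (12 members by population and library set), 8 held a library whose gap to its nearest neighbour was unusually large beside the range of the group (Dixon's test). Chance alone puts about 1 in 20 groups past this limit where values are normally distributed. The test used unlogged CPM, which include zeros and small counts, and every flagged library was the highest of its group. The 8 of 48 are therefore not shown to exceed chance. GFP-positive 10 was such a library in set 2 for Ifit1 (297 CPM, next 59.9 CPM) and for Isg15 (92.4 CPM, next 36.0 CPM). GFP-positive 5 was so in set 1 for Ifit1 (76.3 CPM, next 9.44 CPM). GFP-negative 6 stood apart in set 1 for Ifitm3 (1475 CPM, next 822 CPM, from 3399 counts). GFP-negative 1 stood apart in set 1 for Isg15 (61.2 CPM, next 14.8 CPM) and for Gbp2 (11.8 CPM, next 1.74 CPM, from 5 counts). Irf7 was high in GFP-negative 2 of set 1 (83.8 CPM, next 30.6 CPM, from 11 counts) and in GFP-negative 12 of set 2 (259 CPM, next 86.4 CPM, from 18 counts).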

How the results depend on the processing

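The count of members called by GFP was 0 under every setting run. Members called between identifiers, 1 as reported, were 7 without the filter, 5 by DESeq2, 2 in library set 2 alone, 0 without libraries under 100000 counts and 0 in library set 1 alone (added after seeing the data), and 0 to 3 when leaving out each library; the cause was not tested. Ifit1 and Oas1a were called there without GFP-positive 7, and Rsad2 without identifier 7789-7795, which leaves the fit when either of its libraries does. Fold changes near 0 turned. Ifitm2 (0.02) had -0.056 by relative log expression scaling, -0.013 by library totals, -0.057 by DESeq2, and -0.034 without GFP-positive 3 and the shallow libraries, and ran from -0.052 to 0.088 when leaving out each library, Ifitm3 from -0.10 to 0.26 and Isg15 from -0.28 to 0.47.

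The labels do not say that an identifier is an animal, so the identifier was not taken as a pairing in the main test. Correlations of the deviations of GFP-negative and GFP-positive libraries of 1 identifier were mostly positive. They ran from -0.22, for GFP-negative 6 and GFP-positive 3, to 0.40, for GFP-negative 1 and GFP-positive 1. With the replicate block by identifier, 0 members and 3 genes were called, with the block by title number 0 and 2, and the members' median fell to 0.11 and 0.10. Under the block by identifier Ifitm2, Ifitm3 and Isg15 had -0.078, -0.15 and -0.0036. Without GFP-positive 3 as well, the block gave -0.13, -0.10 and -0.13 and 100 genes. Without the shallow libraries too, the block gave -0.082 for Ifitm2, 0.03 for Ifitm3 and -0.30 for Isg15, and 92 genes.

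Genes called over all libraries, 1 as reported, were 24 by DESeq2, 0 without GFP-positive 3 and the shallow libraries, and 0 to 16 when leaving out each. In set 1 DESeq2 called 6 for 0, in set 2 the 89 became 375 without the filter, 142 by DESeq2 and 140 with the block, and the interaction 1 without the filter and 4 by DESeq2 for 0. Between identifiers the 41 genes became 26 by relative log expression, 796 without the filter, 330 by DESeq2, 8 without the shallow libraries, 94 without these and GFP-positive 3, 157 in set 2, 78 with library set as a covariate, and 17 to 184 when leaving out each library.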
